A study of Homo sapiens with 6 samples.

Results

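The 78 protein-coding genes with a symbol of MRPL or MRPS and a digit were examined here as 1 family. Apart from MRPS36 (below), which is kept in all counts of members, they encode proteins of the mitochondrial ribosome. They were picked by symbol from the 63190 gene identifiers of the transcript table. The rule uses no measured value, but it was set with earlier results of these data known. They comprise 49 MRPL and 29 MRPS symbols with 502 of the 207167 transcripts. The data are RNA-seq of human embryonic kidney cells, labelled HEK293, with 3 libraries of cells that overexpressed DIS3L2 D391N and 3 libraries of control cells. DIS3L2 is a cytoplasmic 3′-5′ exoribonuclease that degrades uridylated RNA, and D391N is a substitution in its catalytic site, so that the enzyme binds RNA but does not degrade it. The methods name the control cells of the RNA-seq HEK293T-Rex FlipIn and the line for the mutant HEK293T-Rex, in which the Flag-tagged mutant was stably integrated and switched on with doxycycline on top of the cells' own DIS3L2. Whether the controls of the RNA-seq also received doxycycline, and which libraries shared a lane, is not given in the sources used here. Each group is a single line and nothing in the labels says that replicates were separate cultures, so p-values measure only the spread between these libraries. A difference may belong to the transgene, to doxycycline or to how either line was derived, and these cannot be told apart.

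The mitochondrial ribosome translates the few mRNAs of the mitochondrial genome, which encode core subunits of the respiratory chain and of the ATP synthase. Its rRNAs are made in the mitochondrion, whereas all of its proteins are encoded in the nucleus, translated in the cytosol and imported. Some of the proteins have a bacterial homologue and others were added during the evolution of mitochondria. Symbols are not a complete guide to the subunit: the protein of MRPS18A and that of MRPS30 are part of the large subunit, and the protein of MRPS36, which RefSeq names KGD4, is now known as a subunit of the 2-oxoglutarate dehydrogenase complex.

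Promoters of the family carried a short shared sequence more often than promoters at large. RefSeq promoters (GRCh38.p14, 250 bases before to 50 after the start of the gene) were matched for 70 of the 78 members. The letters AAGATGGC, the core of the motif of the transcription factor YY1, were present on either strand in 20 of the 70 member promoters (28.6%), in 3.03% of all 27305 promoters and in 3.91% of the 15842 promoters of protein-coding genes. In 15 of the 70 (21.4%) they lay on the strand of the gene within the 50 bases after the start, with the first base at position 7 to 36 counted from 1 at the first transcribed base, against 1.39% of all promoters and 2.18% of those of protein-coding genes. The letters CCGGAAGT of ETS factors were present in 15.7% of member promoters, 4.44% of all and 6.19% of those of protein-coding genes, and those of the SP1 motif, GGGGCGGGG, in 24.3% of member promoters, 16% of all and 22.4% of those of protein-coding genes. The palindromic NRF1 motif (1.43% and 1.36%) and a CCAAT box read as CCAATCAG (2.86% and 4.16%) were about as frequent as elsewhere, and TATAAA was present in 4.29% and 12%. All motifs were searched on both strands, and a match describes these letters only. The YY1 letters contain ATG, and whether they overlap the start of a coding sequence was not tested. The 3 promoters below are shown because they carry the YY1 letters just after the start while the libraries of their genes did not overlap in opposite directions, with MRPS18A and MRPS24 lower and MRPS10 higher in D391N. Capitals mark the YY1 letters, which begin at position 10, 20 and 10. All 3 genes are on the minus strand, and the promoter windows shown are chr6:43687742-43688041, chr7:43869468-43869767 and chr6:42217812-42218111.
MRPS18A: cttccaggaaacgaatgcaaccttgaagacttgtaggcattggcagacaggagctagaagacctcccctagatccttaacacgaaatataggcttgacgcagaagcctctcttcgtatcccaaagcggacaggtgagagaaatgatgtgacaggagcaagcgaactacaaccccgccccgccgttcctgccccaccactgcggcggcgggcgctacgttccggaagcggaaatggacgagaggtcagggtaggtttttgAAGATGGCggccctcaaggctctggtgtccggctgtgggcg
MRPS24: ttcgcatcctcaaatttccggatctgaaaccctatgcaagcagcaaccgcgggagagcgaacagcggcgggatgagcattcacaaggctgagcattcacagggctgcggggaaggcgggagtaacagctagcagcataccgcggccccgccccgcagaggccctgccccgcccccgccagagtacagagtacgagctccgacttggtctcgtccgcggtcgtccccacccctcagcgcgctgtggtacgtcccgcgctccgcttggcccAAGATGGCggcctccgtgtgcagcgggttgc
MRPS10: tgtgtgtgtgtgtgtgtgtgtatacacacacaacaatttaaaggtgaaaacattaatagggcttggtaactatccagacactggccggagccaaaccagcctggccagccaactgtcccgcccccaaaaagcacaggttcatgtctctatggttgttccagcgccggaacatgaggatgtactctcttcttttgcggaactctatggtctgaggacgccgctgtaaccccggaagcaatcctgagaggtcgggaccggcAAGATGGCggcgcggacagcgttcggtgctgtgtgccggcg

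The 20 members with these letters were found in both directions. Among the 19 of them that were tested, 5 were lower and 2 were higher in D391N without overlap of the libraries, and among the 50 tested members whose promoter lacked the letters the counts were also 5 and 2, where 20.7% of all genes tested were lower and 10.5% higher without overlap. The median log2 fold changes were -0.19 with and 0.01 without the letters, within ranges of -0.97 to 0.30 and -0.82 to 0.74. The level of YY1 itself was 63.9, 45.8 and 58.0 RPKM in the D391N libraries and 77.8, 74.8 and 57.7 RPKM in the controls, with overlapping groups.

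Levels are given as RPKM, reads per length of transcript and per depth of library, obtained from the deposited natural log values and summed over the transcripts of a gene. With control replicate 2 set to 1, the depth of the other libraries ranged from 0.621 (D391N replicate 2) to 0.947 (control replicate 1). DIS3L2, read here as a check of the labels, was at 369.5, 466.5 and 512.5 RPKM in D391N and at 11.8, 12.9 and 14.6 RPKM in the controls. Of 9 markers of HEK293, 8 passed the filter on level and NEFM was at 0.241 to 0.638 RPKM. The largest absolute log2 fold changes among them were those of KRT8 (-0.69, without overlap) and NEFL (-0.60, overlapping), none was called, and their sum was lower in D391N (421.8 to 540.3 RPKM) than in the controls (560.9 to 611.2 RPKM). Markers of other cell types, with 7 of 8 matched to the table, summed to 9.21 to 15.4 RPKM in D391N and 9.24 to 10.6 RPKM in the controls, with the muscle gene MYH7 at 0.0028 to 0.0273 RPKM and the fibroblast gene DCN at 3.04 to 6.23 RPKM in D391N and 2.01 to 2.51 RPKM in the controls. COL1A1, which fibroblasts also express, was at 2.03 to 3.91 RPKM in D391N and 2.66 to 4.05 RPKM in the controls, with overlapping groups. The part of these markers in the results was not tested. Across members, the log2 levels of control libraries correlated with each other at r = 0.98 to 0.993 and those of D391N libraries at 0.936 to 0.956, as a description of how alike the libraries were.

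The family was expressed throughout: 73 of the 78 members had a mean above 10 RPKM, 6 were above 100 RPKM, and the median member was at 35.3 RPKM, against 6.87 RPKM for the median gene tested. The highest was MRPS34, a protein of the small subunit, at 199.3, 145.2 and 137.3 RPKM in D391N and 242.8, 224.3 and 211.2 RPKM in the controls. Next in the order were MRPL3, the counterpart of a core bacterial protein of the large subunit, with group means of 135.5 ± 31.9 RPKM in D391N and 129.6 ± 27.7 RPKM in the controls (SD, n = 3), MRPS35 with 140.6 ± 46.4 and 106.6 ± 9.42 RPKM, MRPS23 with 120.8 ± 17.8 and 115.2 ± 21.03 RPKM, and MRPL42 with 120.3 ± 16.6 and 103.5 ± 10.1 RPKM. These 4 followed MRPS34 but did not differ from each other beyond the spread between libraries. At the other end stood MRPL45, whose protein ties the ribosome to the inner membrane, at 1.04, 0.449 and 1.13 RPKM in D391N and 0.605, 0.571 and 1.88 RPKM in the controls. It was the only member under the minimum mean of 1 RPKM and was not tested. MRPS18B was at 1.97 to 2.69 RPKM in D391N and 2.68 to 2.89 RPKM in the controls, MRPL41 at 1.93 to 2.87 and 2.40 to 4.64 RPKM, MRPL57 at 6.14 to 10.1 and 5.75 to 8.13 RPKM, and MRPS36 at 2.20 to 13.8 and 6.71 to 12.8 RPKM. The highest tested member was 76.3-fold above the lowest, although the ribosome holds most of its proteins in equal number. Reads that match several sequences are divided among them, 7428 gene identifiers had no symbol, and whether any of those is a further copy of MRPS18B or MRPL45 was not tested.

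**Figure D1:**
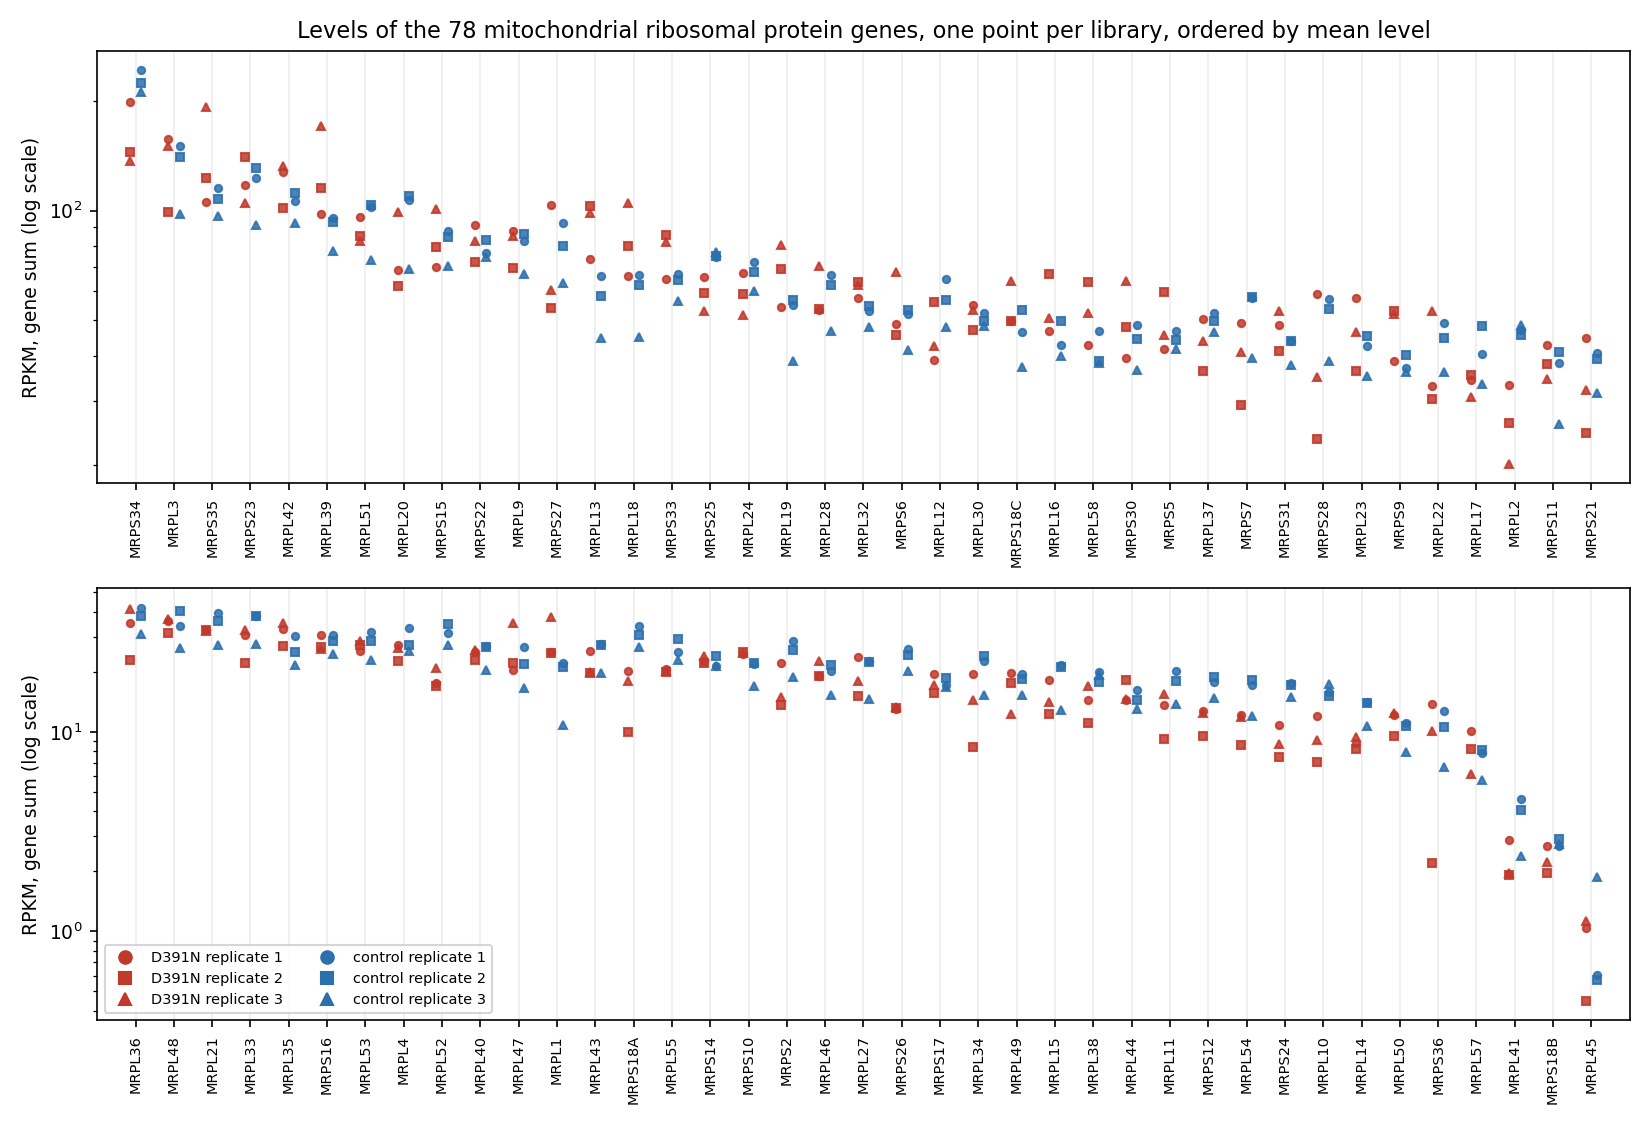
Each point is the RPKM of 1 gene in 1 library, on a log axis, with the 78 members ordered by mean level from MRPS34 at the upper left to MRPL45 at the lower right. Red points are D391N and blue points are controls, and control replicate 3 (blue triangles) is the lowest control for 71 of the 78 members.

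The comparison of D391N with control asked whether the catalytically inactive nuclease changed the levels of these mRNAs. The total over the family overlapped between groups: the member levels summed to 3429, 3147 and 3630 RPKM in D391N replicates 1, 2 and 3 and to 3684, 3604 and 2903 RPKM in the controls. The means were 3402 ± 242 and 3397 ± 430 RPKM (SD, n = 3). In bulk RNA, fewer cells with a given level and less RNA per cell cannot be told apart. Of the 77 members tested, 35 had a log2 fold change above 0 and 42 below, no member differed by more than 1 on the log2 scale (11.5% of the 20714 genes tested did), and 60 differed by less than 0.5. The median log2 fold change was -0.02, and that of all genes tested was -0.09. No member passed an adjusted p of 0.05 (limma, Benjamini-Hochberg over all genes), where 29 genes or 0.14% of all genes tested passed. At an unadjusted p under 0.05 there were 11 members (14.3%, against 22.7% of all genes), 1 higher (background 6.76%) and 10 lower (background 16%).

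In 12 members all D391N libraries were below all controls (15.6%, against 20.7% of all genes), and in 5 all were above (6.49%, against 10.5%). This split depended on the scaling: 6 were lower and 15 higher with each library centred on its median, where 11.5% of all genes were lower and 21.2% higher. With centring in bins of GC content 4 were lower and 11 higher, where 10.7% of all genes were lower and 15.8% higher. Control replicate 3 lay apart from the other controls over this family. It was the lowest control for 91.0% of the members and for 41.4% of all genes tested, and without it 30 members were lower and 5 higher without overlap, where 26.1% of all genes were lower and 12.8% higher. The summed mitochondrial rRNAs were at 44470 RPKM in that library, above the 19110 and 24630 RPKM of the other controls. They were at 55260 RPKM in D391N replicate 1, where the members summed to 3429 RPKM. Control replicate 3 also had the lowest relative depth of the controls, at 0.673. The part of the rRNAs and of depth in the lower member levels was not tested.

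Members of the small subunit were among those lowest in D391N relative to control. MRPS24, the counterpart of a bacterial protein near the entry of the mRNA channel, was at 10.9, 7.44 and 8.69 RPKM in D391N and 17.6, 17.1 and 14.9 RPKM in the controls. All of its D391N values lay below the lowest control, with a log2 fold change of -0.88 ± 0.18 (SE) and an adjusted p of 0.091 by limma. Its exons share bases with those of the readthrough gene URGCP-MRPS24, so that reads may be divided between both. In all, exons of 32 members share bases with another protein-coding gene. MRPL2, MRPL12, MRPL53 and MRPS28, named below, also have such a partner on their own strand. The part of this sharing in the levels was not tested. MRPS26, a mitochondria-specific protein with a single transcript in the table, was at 13.1, 13.2 and 13.3 RPKM in D391N and 26.2, 24.4 and 20.2 RPKM in the controls. The D391N libraries differed from each other by less than the controls did, the log2 fold change was -0.82 ± 0.15 (SE), and its adjusted p of 0.079 by limma was the lowest of the family. MRPS34 had a log2 fold change of -0.51 ± 0.20 (SE, adjusted p = 0.193, limma) without overlap. After centring in bins of GC content the log2 fold change was 0.05 for MRPS34, -0.26 for MRPS26 with overlapping groups, and -0.56 for MRPS24 without overlap.

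Members of the large subunit were found at both ends. MRPS18A, a small-subunit paralogue by name whose protein is in the large subunit, was at 20.3, 9.98 and 17.9 RPKM in D391N and 33.8, 30.7 and 26.7 RPKM in the controls. It had the lowest log2 fold change of the family, without overlap, at -0.97 ± 0.28 (SE, adjusted p = 0.132, limma). MRPL2, which in bacteria lies at the catalytic centre, was at 33.2, 26.2 and 20.2 RPKM in D391N and 47.0, 45.6 and 48.7 RPKM in the controls. The controls lay close together and the D391N libraries were spread, with a log2 fold change of -0.86 ± 0.20 (SE, adjusted p = 0.102, limma). MRPL10, the base of the flexible stalk that recruits translation factors, was at 11.96, 7.09 and 9.15 RPKM in D391N and 15.9, 15.1 and 17.3 RPKM in the controls, with -0.80 ± 0.21 (SE, adjusted p = 0.119, limma). After centring in bins of GC content the log2 fold change was -0.53 for MRPS18A with overlapping groups and no longer the lowest of the family, -0.54 for MRPL2 and -0.50 for MRPL10.

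Among the members above their controls, MRPL1, the protein of the mobile stalk beside the exit site for tRNA, was at 25.16, 24.99 and 37.54 RPKM in D391N and 22.1, 21.2 and 10.8 RPKM in the controls. Its log2 fold change was 0.74 ± 0.32 (SE, adjusted p = 0.23, limma) and was 0.40 without control replicate 3 and 0.43 with protein-coding transcripts only. MRPL13 was at 73.6, 102.7 and 98.6 RPKM in D391N and 66.3, 58.4 and 44.8 RPKM in the controls, with 0.70 ± 0.21 (SE, adjusted p = 0.14, limma). MRPL39, a mitochondria-specific protein, was at 98.2, 115.5 and 170.9 RPKM in D391N and 95.6, 93.3 and 77.4 RPKM in the controls. D391N replicate 1 was only just above the highest control, and the log2 fold change was 0.50 ± 0.23 (SE, adjusted p = 0.258, limma). MRPS10 was at 24.6, 25.2 and 24.9 RPKM in D391N and 22.0, 22.2 and 16.9 RPKM in the controls (0.30 ± 0.15 SE, adjusted p = 0.294, limma). A processed copy of it, MRPS10P1, was listed at 32.3, 53.7 and 80.5 RPKM in D391N and 36.4, 34.8 and 26.8 RPKM in the controls, so that the level of MRPS10 rests on how reads were divided between gene and copy. MRPL32, which is matured by the m-AAA protease, was at 57.6, 63.5 and 62.5 RPKM in D391N and 53.2, 54.6 and 48.0 RPKM in the controls (0.24 ± 0.13 SE, adjusted p = 0.327, limma). With protein-coding transcripts only its log2 fold change was 0.89 (adjusted p = 0.0506, limma). After centring in bins of GC content the log2 fold change was 0.68 for MRPL1, 0.74 for MRPL13 and 0.52 for MRPL39. It was 0.22 for MRPS10 and 0.16 for MRPL32, and MRPL18, at 0.76, was then the highest of the family.

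**Figure D2:**
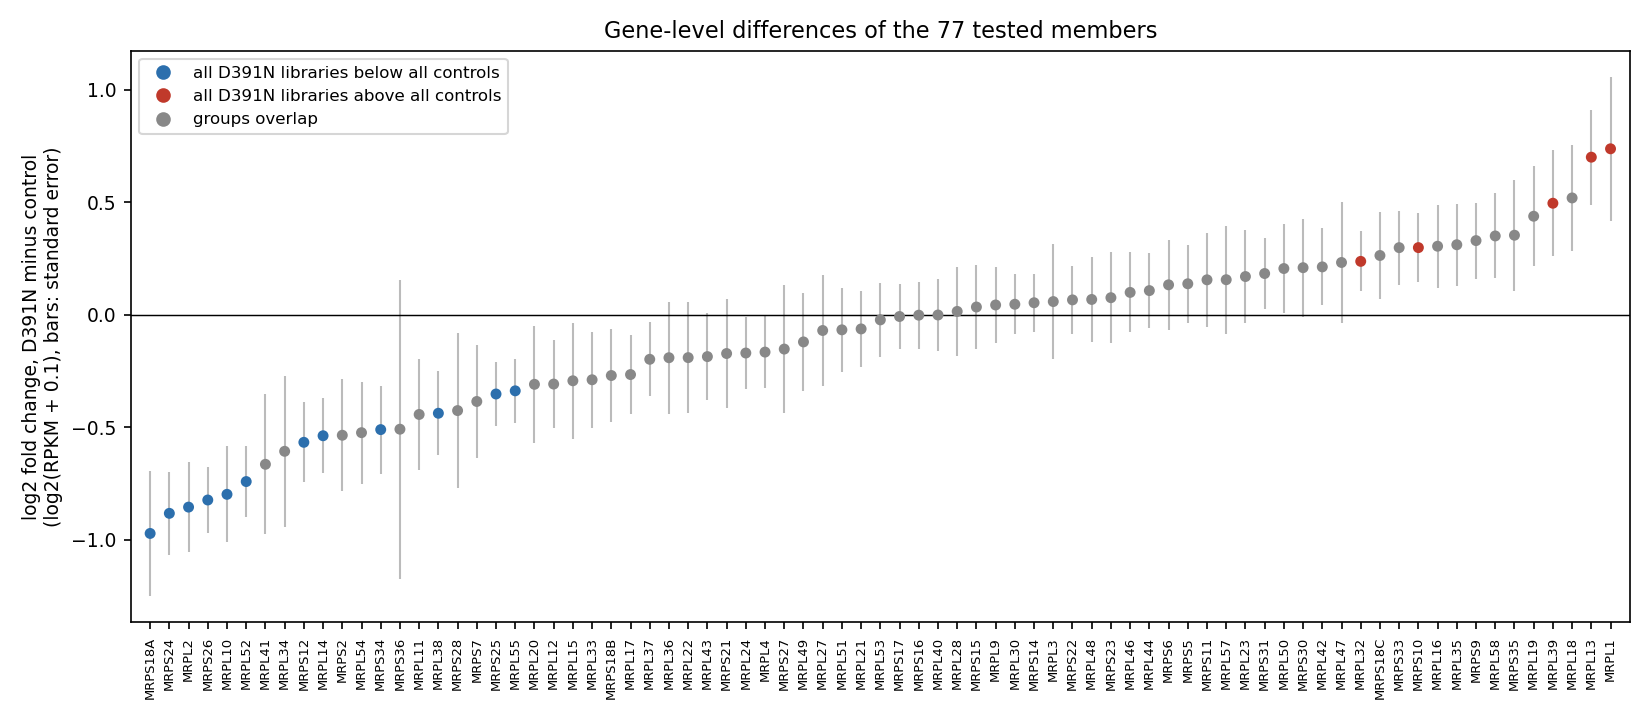
Points are the log2 fold changes (D391N minus control, on log2(RPKM + 0.1)) of the 77 tested members in order, and bars are standard errors from limma. Blue marks the 12 members with all D391N libraries below all controls and red the 5 with all above; the range runs from -0.97 for MRPS18A to 0.74 for MRPL1.

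D391N replicate 1 decided how many members passed the threshold. Without it 7 members were called (9.09%), against 10.9% of all genes tested: MRPL2 at -1.03, MRPS24 at -1.03, MRPL10 at -0.99, MRPS26 at -0.82, MRPS34 at -0.68, MRPS18A at -1.17 and MRPL13 at 0.85, with adjusted p of 0.0247 to 0.0492 by limma. That library lay closest to the controls, with r = 0.95 to 0.968 to them over members, and D391N replicate 2 lay farthest at 0.916 to 0.923. With sums over transcripts annotated as protein coding only, 3 members were called of 76 tested, where 5.22% of all 11351 genes tested were called. They were MRPL52 at -1.11, MRPS26 at -0.82 and MRPL2 at -1.20. MRPL52, a mitochondria-specific protein of the large subunit, had summed over all transcripts to 17.6, 17.1 and 20.9 RPKM in D391N and to 31.1, 34.9 and 27.2 RPKM in the controls.

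The parts of the ribosome are described by their counts, beside the 12 lower and 5 higher of all members. Of all genes tested, 20.7% were lower and 10.5% higher without overlap. The 30 large-subunit members with a bacterial homologue had a median log2 fold change of -0.12, with 4 lower and 3 higher without overlap, and the 20 tested mitochondria-specific ones had -0.01, with 3 lower and 1 higher. Of the 16 small-subunit members with a homologue (median 0.02), 2 were lower and 1 was higher without overlap, and of the 10 mitochondria-specific ones (median -0.04) 3 were lower and none was higher. The peptide exit tunnel had no member without overlap among 5 tested (median -0.17), and the central protuberance had 2 of 7, both lower (median -0.0014). No list had a member called, and with centring in bins of GC content the medians of these 6 lists were 0.07 to 0.18.

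The stalk that recruits translation factors consists of copies of MRPL12 on MRPL10, with MRPL11 and MRPL53 beside it. The summed level of its 4 members was 89.9, 99.7 and 95.7 RPKM in D391N and 132.5, 118.4 and 101.9 RPKM in the controls, without overlap. All 4 had a log2 fold change below 0, with a median of -0.38, and this median was 0.03 after centring in bins of GC content. Only MRPL10 had groups without overlap. MRPL12 was at 38.9, 56.2 and 42.6 RPKM in D391N and 64.9, 56.7 and 48.0 RPKM in the controls (-0.31 ± 0.20 SE, adjusted p = 0.386, limma), and its fold change was 0.26 after that centring. MRPL11 was at 13.6, 9.25 and 15.5 RPKM in D391N and 20.11, 17.98 and 13.72 RPKM in the controls, with -0.44 ± 0.25 (SE). MRPL53 was at 25.4, 27.2 and 28.5 RPKM against 31.6, 28.6 and 22.8 RPKM, with -0.02 ± 0.16 (SE). With protein-coding transcripts only the log2 fold change was -0.98 for MRPL53 (adjusted p = 0.137) and -0.12 for MRPL11.

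The 3 paralogues of bacterial S18 differed in level and in the direction of their fold changes. MRPS18C was at 49.8, 49.8 and 64.1 RPKM in D391N and 46.5, 53.2 and 37.1 RPKM in the controls (0.26 ± 0.19 SE, adjusted p = 0.446, limma). MRPS18A was lower in all D391N libraries (above), and MRPS18B was near the bottom of the family with -0.27 ± 0.21 (SE, adjusted p = 0.469, limma). The difference between the paralogues was not tested.

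A supplementary list of the study names members with windows of uridylated reads bound by DIS3L2 D391N in crosslinking and immunoprecipitation: MRPL37, MRPL55, MRPS16 and MRPS2, 4 of the 78. The study chose windows by their frequency of reads with added uridines. It places uridylated mRNA reads in the untranslated regions at either end, with those downstream of the coding region from histone mRNAs. It also reports that bound transcripts could not be told from others by their change in level with D391N. The share of all genes with such a window was not determined here. That list was made from cells with the same construct, and the other 74 members may differ from these in level. MRPL55 was at 20.64, 20.02 and 20.11 RPKM in D391N and 25.3, 29.1 and 22.9 RPKM in the controls, without overlap (-0.34 ± 0.14 SE, adjusted p = 0.221, limma). MRPS2 was at 22.2, 13.58 and 15.01 RPKM in D391N and 28.6, 25.9 and 18.8 RPKM in the controls, and D391N replicate 1 lay above the lowest control (-0.54 ± 0.25 SE). MRPL37 (-0.20 ± 0.16 SE) and MRPS16 (-0.0022 ± 0.15 SE) had overlapping groups. The fold changes of MRPL37, MRPL55 and MRPS16 were of the other sign, 0.06, 0.11 and 0.23, after centring in bins of GC content, and that of MRPS2 was -0.09.

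Other genes of the same pathway were read from lists of known genes. None of 5 further subunits was called, and AURKAIP1 was the only one without overlap, at 47.3, 39.1 and 41.7 RPKM in D391N and 73.4, 67.7 and 57.6 RPKM in the controls (-0.63 ± 0.16 SE, adjusted p = 0.111, limma). CHCHD1 had the next largest difference (-0.36 ± 0.31 SE). Among 13 translation factors none was called. At an unadjusted p under 0.05 (limma) 5 were higher and 2 lower, where 6.76% of all genes tested were higher and 16% lower. TUFM, the elongation factor that brings tRNA to the ribosome, was at 123.9, 117.1 and 171.3 RPKM in D391N and 343.3, 339.8 and 290.9 RPKM in the controls, far outside the spread of either group (-1.26 ± 0.20 SE, adjusted p = 0.067, limma). OXA1L, the insertase that receives the new proteins at the inner membrane, was at 18.3, 15.1 and 19.3 RPKM against 39.3, 33.9 and 32.3 RPKM (-0.999 ± 0.16 SE, adjusted p = 0.066, limma). Both had a lower fold change than any of the 77 members.

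The shares of all genes beside the next counts are 10.5% higher and 20.7% lower without overlap. Of 24 assembly factors, 3 were higher and 5 lower without overlap and none was called; the largest absolute fold changes were those of MPV17L2 (-0.78 ± 0.36 SE, overlapping groups) and DHX30 (0.65 ± 0.18 SE). Of 17 mitochondrial aminoacyl-tRNA synthetases, 2 were higher and 3 lower, with VARS2 (-0.75 ± 0.17 SE) and PARS2 (-0.54 ± 0.23 SE) the farthest from 0. Of 9 nuclear regulators of mitochondrial genes, 1 was higher and 3 lower, with MYC (-1.11 ± 0.23 SE) and ESRRA (-0.98 ± 0.21 SE) the farthest from 0. The mitochondrial mRNAs that the ribosome translates, 13 in all, had a median of -0.34 with 2 lower without overlap, MT-ND3 (-1.38 ± 0.52 SE) and MT-CO3 (-1.10 ± 0.42 SE). The mitochondrial rRNAs varied between libraries of 1 group as much as between groups: MT-RNR2 was at 36200, 19690 and 23830 RPKM in D391N and at 11800, 15870 and 25260 RPKM in the controls, after a depletion of rRNA during library preparation.

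For comparison, of 80 tested cytosolic ribosomal protein genes 46 were lower and 2 higher without overlap, with a median log2 fold change of -0.49, where 20.7% of all genes were lower and 10.5% higher, and of 38 nuclear genes for complex I 13 were lower and none higher, with a median of -0.36. NDUFA13 was the 1 gene of these lists that was called, at 24.5, 25.9 and 23.8 RPKM in D391N and 58.3, 65.1 and 62.7 RPKM in the controls (-1.32 ± 0.13 SE, adjusted p = 0.0312, limma). Members of the mitochondrial ribosome had 12 lower and 5 higher of 77, with a median of -0.02. The median GC content of the transcripts was 50.5% in the mitochondrial ribosome, 50.2% in the cytosolic genes and 49.9% in complex I. With centring in bins of GC content the median log2 fold changes were 0.13, -0.28 and -0.17 in the same order. The difference between the families was not tested.

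**Figure D3:**
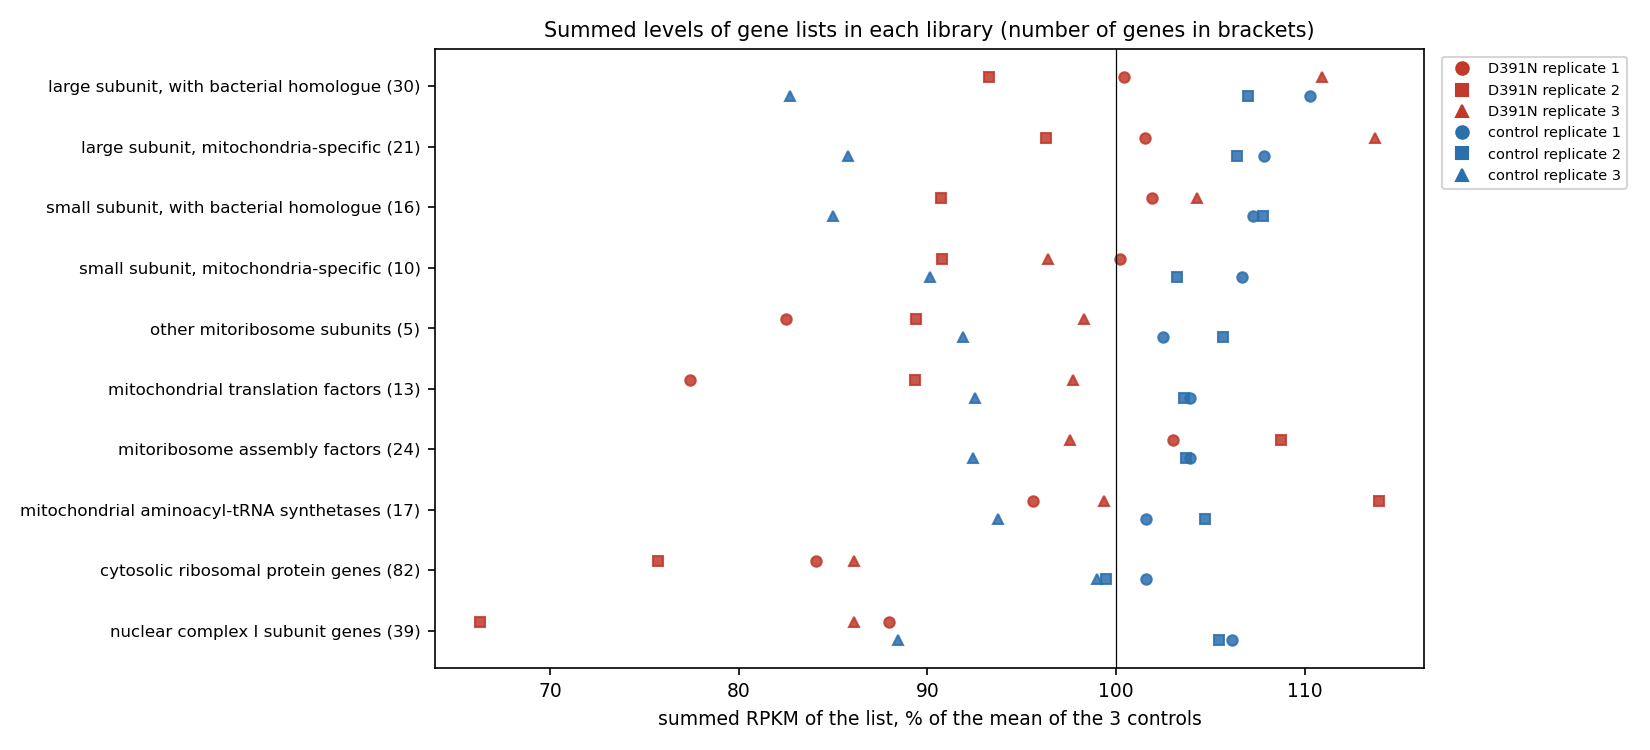
Each row is 1 list of genes, and each point is its summed RPKM in 1 library as a percentage of the mean of the 3 controls (red D391N, blue control). The 4 lists of member genes overlap between groups, whereas the cytosolic ribosomal proteins lie at 75.7% to 86.1% in D391N and 99.0% to 101.6% in the controls.

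Base composition moved with the fold changes of the family. Spearman's rho between the GC content of a member's transcripts and its log2 fold change was -0.64 over 77 members (Pearson's r = -0.61), and over the tested protein-coding genes it was -0.56. These are descriptions across genes, which share the 6 libraries. The 5 members above their controls had a GC content of 38.2% to 43.2%, and the 12 below had 48.6% to 61.9%. The 23 members under 45% GC had a median log2 fold change of 0.21, like the 0.20 of protein-coding genes in that range, and the 22 members of at least 55% GC had -0.52, where protein-coding genes had -0.41. In single libraries, the deviation from the 6-library mean had a rho with GC content of -0.24, -0.38 and -0.62 in D391N replicates 1, 2 and 3 and of 0.54 to 0.57 in the controls. After centring in bins of GC content, rho over members was -0.16, MRPL2 at -0.66 and MRPL13 at 0.92 were called without D391N replicate 1, and 7.13% of all genes were called in that setting. The part of base composition in the differences was not tested.

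**Figure D4:**
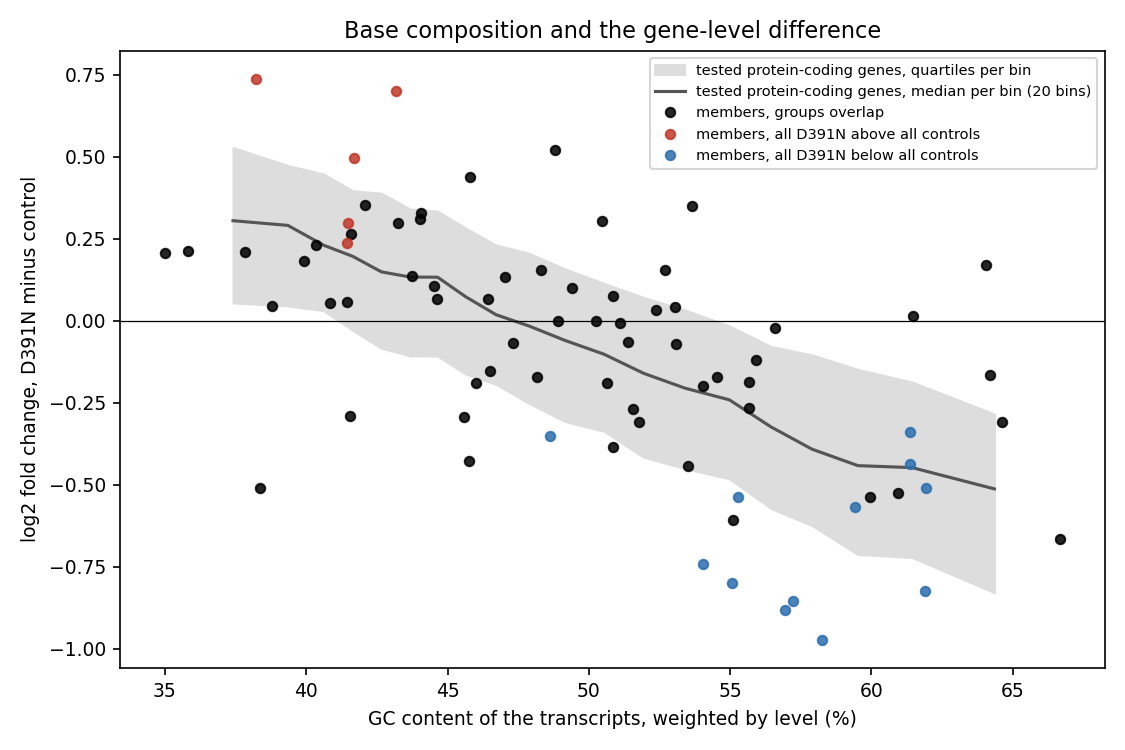
The x axis is the GC content of a gene's transcripts, weighted by their level, and the y axis is its log2 fold change (D391N minus control). The grey line and band are the median and quartiles of tested protein-coding genes in 20 bins; the 5 red members lie at 38.2% to 43.2% GC and the 12 blue members at 48.6% to 61.9%.

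Within genes, the 502 transcripts comprised 273 protein-coding ones, 93 with a retained intron, 77 without a defined coding sequence and 53 marked for nonsense-mediated decay. The number per gene ran from 1, in 7 genes, to 34 in MRPL55, with a median of 5. The top transcript held a median of 56.5% of a gene's level. Transcripts without a defined coding sequence made up 7.27%, 7.30% and 7.25% of the family's RPKM in D391N and 5.89%, 6.02% and 5.52% in the controls. The groups did not overlap, and the same share over all protein-coding genes was also higher, at 11.01% to 12.9% against 10.3% to 10.8%. Retained-intron transcripts made up 12.4%, 9.46% and 8.27% in D391N and 12.1%, 12.8% and 13.3% in the controls, with D391N replicate 1 inside the control range. Transcripts marked for nonsense-mediated decay were at 7.91% to 8.84% and 7.42% to 8.72%.

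At the level of single transcripts 314 of the 502 passed the filter and none was called, where 0.0604% of all 54671 transcripts tested were called. At an unadjusted p under 0.05 there were 55 (17.5%, against 17.6% of all), 21 higher (background 6.86%) and 34 lower (background 10.7%). The ratio of a transcript to the rest of its gene, which is free of library scaling, was tested for 307 member transcripts, and again none was called, where 0.0249% of 48131 were. At an unadjusted p under 0.05 there were 61 (19.9%, against 15.7% of all, of which 7.16% higher and 8.54% lower), and the groups did not overlap for 34 higher (11.1%, against 10.2%) and 38 lower (12.4%, against 12.8%). Without D391N replicate 1 the calls were 31 transcripts by level (9.87%, against 9.07% of all, 3.84% higher and 5.23% lower) and 33 by ratio (10.7%, against 7.6% of all, 3.44% higher and 4.16% lower).

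The lowest p of the ratio belonged to ENST00000318364 of MRPL43, a protein-coding transcript of 3 exons (GRCh37, chr10:102746026-102747254, minus strand). MRPL43 is a mitochondria-specific protein of the large subunit. The transcript was at 1.18, 0.729 and 1.45 RPKM in D391N and 8.19, 7.33 and 7.54 RPKM in the controls, and it made up 4.65%, 3.67% and 7.27% of the gene in D391N and 29.6%, 27.0% and 38.3% in the controls. Its log2 ratio to the rest of the gene differed by -3.01 ± 0.41 (SE, adjusted p = 0.0835, limma), and was called without D391N replicate 1 (-2.94, adjusted p = 0.0198). By level the log2 fold change was -2.72 ± 0.31 (SE, adjusted p = 0.065, limma), called with a pseudocount of 1 RPKM (-2.05, adjusted p = 0.0391) and with quantile normalization (-2.57, adjusted p = 0.0485). The posterior SD of the natural log level was 1.13 to 1.21 in D391N and 0.287 to 0.33 in the controls, so that the D391N levels rest on few or no reads and the fold change depends on the pseudocount. The transcript ENST00000493646, which shares 807 exon bases with it and has 90 of its own, was at 18.5, 11.8 and 10.2 RPKM in D391N and 12.6, 14.1 and 7.80 RPKM in the controls. The summed level of MRPL43 was 25.4, 19.8 and 19.9 RPKM against 27.7, 27.2 and 19.7 RPKM, with overlapping groups. Exons of MRPL43 share bases with TWNK and SEMA4G, both on the opposite strand.

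MRPL16, a counterpart of a core bacterial protein of the large subunit, was made up almost wholly of a pair of transcripts. The longer one held the larger share in all controls and in D391N replicate 1, and the shorter one in D391N replicates 2 and 3. ENST00000300151 (1083 bases) made up 51.6%, 22.7% and 41.6% of the gene in D391N and 79.0%, 77.9% and 70.9% in the controls. ENST00000534340 (574 bases) made up 46.7%, 76.7% and 57.1% in D391N and 19.2%, 19.4% and 27.0% in the controls. The groups did not overlap for either. The log2 ratio of the shorter one to the rest of the gene differed by 2.49 ± 0.51 (SE, adjusted p = 0.135, limma), and by 2.904 without D391N replicate 1 (adjusted p = 0.0229). They share 513 exon bases, 61 are particular to the shorter and 570 to the longer.

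MRPL58 encodes a peptidyl-tRNA hydrolase that became part of the large subunit. Its transcript ENST00000580800, marked for nonsense-mediated decay, was at 14.2, 29.3 and 15.6 RPKM in D391N and 4.19, 4.06 and 6.29 RPKM in the controls. It made up 33.3%, 45.8% and 29.8% of the gene against 8.99%, 10.5% and 16.5%, with a difference in the log2 ratio of 2.08 ± 0.42 (SE, adjusted p = 0.13, limma) and of 2.16 without D391N replicate 1 (adjusted p = 0.0446). The protein-coding ENST00000584208 was at 19.4, 31.7 and 32.4 RPKM in D391N and 32.3, 27.6 and 26.9 RPKM in the controls, so that its level overlapped between groups while its share did not. In MRPL32 the direction for the decay biotype was the opposite: ENST00000413995 made up 30.4%, 5.18% and 7.80% in D391N and 39.01%, 41.6% and 46.2% in the controls, and the protein-coding ENST00000223324 made up 63.4%, 88.1% and 84.9% against 53.2%, 51.2% and 44.4%.

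MRPL4 held 3 of the 10 transcripts with the lowest p of the ratio. The protein-coding ENST00000592514 was at 0.499, 0.318 and 3.45 RPKM in D391N and 10.5, 6.02 and 7.22 RPKM in the controls (log2 ratio -3.23 ± 0.80 SE, adjusted p = 0.169, limma). ENST00000590150 was at 2.24, 4.61 and 1.41 RPKM in D391N and 0.415, 0.162 and 0.288 RPKM in the controls (3.10 ± 0.62 SE, adjusted p = 0.124, limma). ENST00000591054, marked for nonsense-mediated decay, was at 1.64, 5.91 and 1.28 RPKM in D391N and 0.144 to 0.215 RPKM in the controls (3.496 ± 0.75 SE, adjusted p = 0.143, limma). The posterior SD of the last pair was 1.2 to 1.3 in the controls, where few or no reads lie behind the values. The gene sum of MRPL4 overlapped, at 27.1, 22.8 and 26.3 RPKM in D391N and 33.3, 27.2 and 25.4 RPKM in the controls. Without D391N replicate 1 the last pair were called (adjusted p = 0.0428 and 0.0416) and ENST00000592514 was not (0.0928). With a pseudocount of 1 RPKM the differences of the last pair were 1.77 and 1.90.

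The other transcripts among those 10 were ENST00000490670 of MRPL37, ENST00000522987 of MRPS28 and ENST00000526171 of MRPL49. The first made up 8.48%, 20.6% and 10.9% of its gene in D391N and 1.82%, 3.33% and 3.67% in the controls, the second 14.3%, 11.8% and 14.4% against 5.05%, 5.86% and 2.96%, and the third 45.5%, 62.2% and 32.0% against 19.5%, 14.7% and 21.5%. All 3 were higher in every D391N library, with adjusted p of 0.16 to 0.177 by limma, and ENST00000490670 was called without D391N replicate 1 (2.54, adjusted p = 0.0413). In MRPL24, a protein beside the exit tunnel, ENST00000361531 and ENST00000368211 are each 883 bases long, share 840 of them and have 43 of their own. The first made up 71.6%, 68.1% and 57.5% in D391N and 40.6%, 46.9% and 54.5% in the controls, and the second 26.0%, 28.5% and 38.0% against 52.6%, 48.5% and 43%. The log2 ratios differed by 1.11 ± 0.37 (SE, adjusted p = 0.242, limma) and -1.06 ± 0.34 (SE, adjusted p = 0.234, limma).

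**Figure D5:**
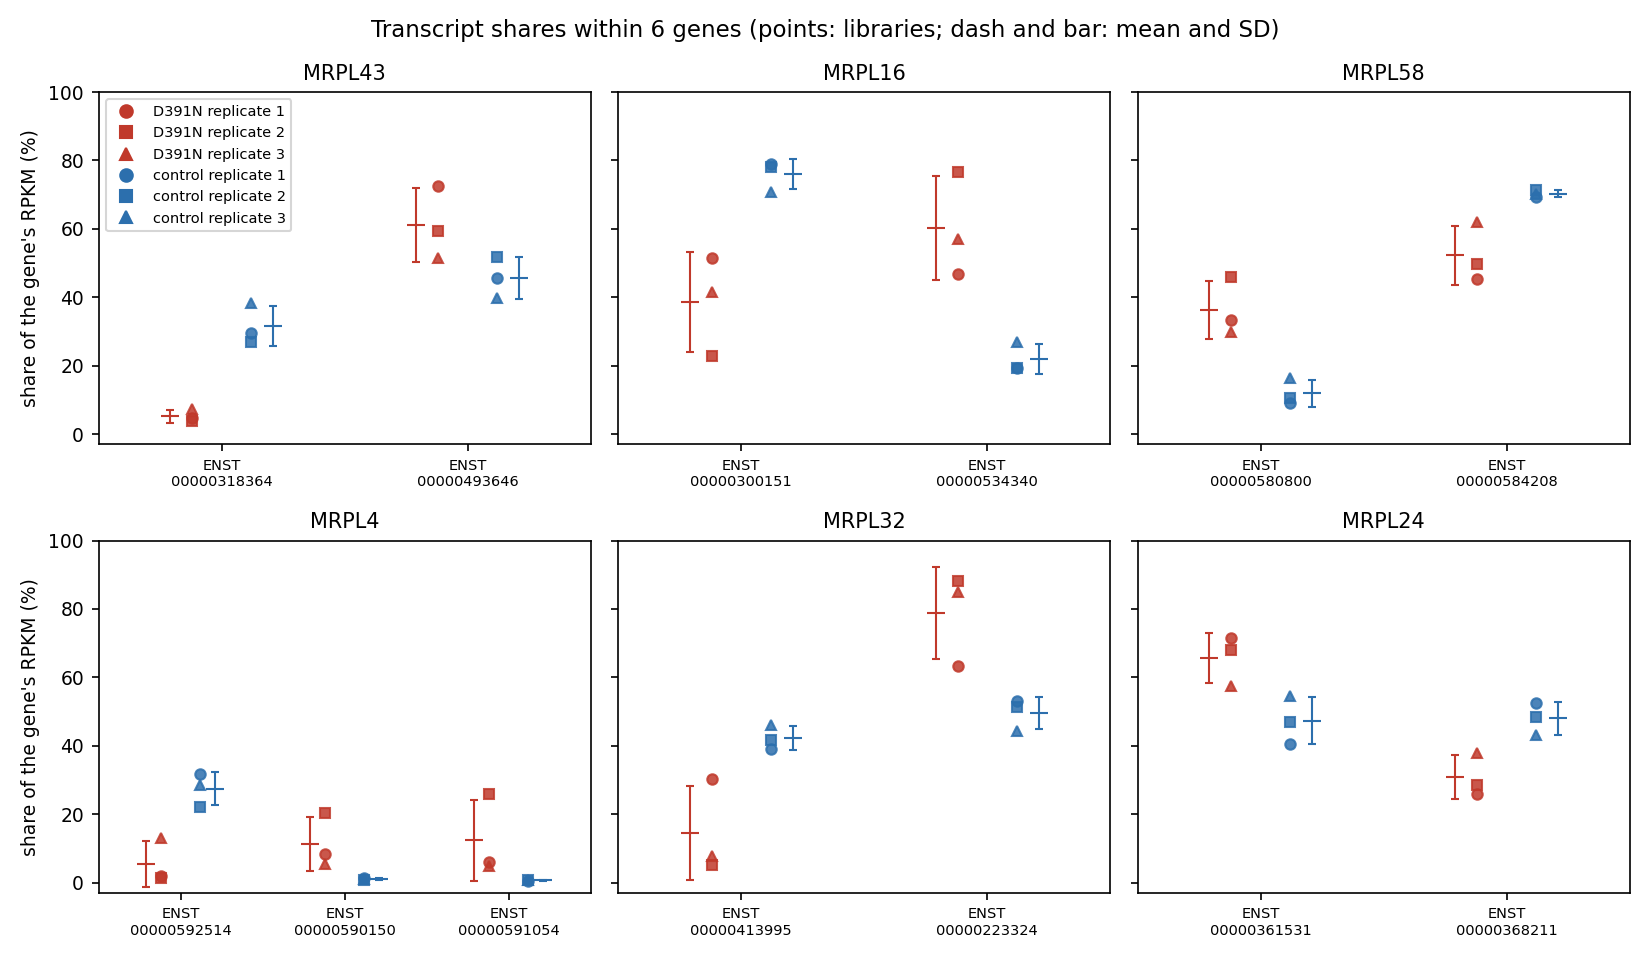
Each panel is 1 gene and each point the share of a transcript in the gene's RPKM in 1 library (y axis, percent; red D391N, blue control), with the mean and SD beside the points. ENST00000318364 of MRPL43 is at 3.67% to 7.27% in D391N and 27.0% to 38.3% in the controls, and the groups overlap in these panels only for ENST00000493646.

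The most abundant transcript by group mean differed between D391N and control in 18 of the 70 members with at least 2 transcripts and a mean of at least 1 RPKM (25.7%, against 24.8% of 14174 such genes). In no member did all 6 libraries show the top transcript of their own group. MRPL3 had the highest level among them: the protein-coding ENST00000264995 made up 40.5%, 80.6% and 60.8% in D391N and 36.97%, 41.2% and 42.6% in the controls, and the retained-intron ENST00000510043 made up 53.6%, 2.91% and 21.7% against 41.2%, 43.6% and 45.7%. In MRPS22, ENST00000465373 made up 62.6%, 3.62% and 23.7% in D391N and 44.4%, 44.99% and 43.6% in the controls. In MRPS27, ENST00000519143 made up 32.3%, 2.14% and 2.43% against 31.8%, 17.7% and 16.1%, and in MRPS7 the decay transcript ENST00000583407 made up 38.7%, 7.84% and 29.0% against 43.9%, 35% and 37.5%. In MRPL18, ENST00000476826 made up 16.4%, 69.4% and 67.1% against 39.1%, 35.6% and 25.2%. In these 5 genes D391N replicates 2 and 3 lay on the same side of all controls, and D391N replicate 1 lay among the controls or on their other side. MRPL9, MRPL19, MRPS33, MRPL16 and MRPL24 were the other members of the 10 highest with a different top transcript. The spread of the D391N libraries was larger than that of the controls, with a median coefficient of variation over members of 18.5% in D391N and 14.6% in the controls at gene level, against 24.8% and 13.0% over all genes tested.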

How the data were processed

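RNA-seq of 3 libraries of cells labelled HEK293 (HEK293T-Rex in the methods, FlipIn for the controls) overexpressing DIS3L2 D391N and 3 control libraries was analysed. By the study's methods, RNA was depleted of rRNA, and the authors trimmed single-end reads (cutadapt), mapped them to Ensembl transcripts of hg38 (Segemehl) and quantified each transcript with BitSeq. The deposited table gives, per transcript and library, a natural log of the RPKM as a posterior mean, with its variance. Values were exponentiated and summed by gene. Features whose mean reached 1 RPKM were tested on log2(RPKM + 0.1), a scale that understates changes of low genes, in limma 3.58.1 with trend (R 4.3.3), with Benjamini-Hochberg adjustment over all features tested and a threshold of 0.05. Python 3.11.15 with pandas 2.3.3, numpy 2.4.6 and, for figures, matplotlib 3.10.9 were also used. The tests were checked at gene level on simulated data with the spread of all genes tested. Log2 changes of 1, larger than that of any member, were recovered in 0% of 200 changed genes among 20714, and smaller changes were not simulated. In the data the median SE was 0.196 over members and 0.256 over all genes. Recovery may therefore differ for the members, for which it was not simulated. The absence of calls does not show that the members did not differ. Relative depth was estimated from transcripts that received no reads. An exact permutation test of 3 against 3 cannot go below p = 0.1, so none is given.

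The members and lists were chosen with earlier results of these data known. Genes named are members called, the 5 largest differences in each direction without overlap, the 5 highest and 5 lowest levels, the 10 transcripts with the lowest p of the ratio, the 10 highest members with a different top transcript, members with a bound window, the stalk and the S18 paralogues, and in the other fixed lists those called or otherwise the pair with the largest absolute fold change. Cytosolic ribosomal protein and complex I genes were counted, with calls named. NEFM, MYH7, MRPL52, MRPL24, ENST00000413995, YY1 and members called only in an alternative were named after their values were seen. Of the gene identifiers, 88.2% had a symbol. Transcript positions are GRCh37 (GENCODE), and promoters are GRCh38.p14 (RefSeq). Alternatives planned were other pseudocounts, filters and scalings, limma without trend, a replicate block, protein-coding transcripts only and each library left out. Centring in 20 bins of GC content was added after seeing the data.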

Additional observations from a re-analysis of the deposited data

How the results depend on the processing

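With each library left out in turn, 0 to 7 members were called at gene level, 0 to 31 transcripts by level and 0 to 33 by ratio, and calls were made only without D391N replicate 1. With centring in GC bins and without that library, 2 members and 28 transcripts were called. A pseudocount of 1 RPKM and quantile normalization each gave 1 transcript call, of MRPL43, and protein-coding transcripts only gave 3 member calls. Over all genes the calls were 29, against 593 with protein-coding transcripts only, 61 with a pseudocount of 1 and 16 with 0.01, 6 with the filter raised to 5 RPKM and 18 unfiltered, 14 with median centring, 17 with quantile normalization, 13 with GC-bin centring, 1383 with that centring without D391N replicate 1, and 2 to 2261 with a library left out. Over all transcripts they were 33 by level, against 142 with a pseudocount of 1 and 17 with the filter raised to 5 RPKM, and 12 by ratio, against 55 and 21. The members' median log2 fold change was 0.20 with median centring, which moved the median of all genes from -0.09 to 0.13, and -0.16 to 0.04 with a library left out. Whether same-numbered libraries were prepared together is not given in the sources used here. Their deviations from the group means correlated at 0.0699, 0.221 and -0.111, which cannot decide it with 3 libraries per group. With the replicate block 0 members were called, and calls fell from 29 to 2 genes, from 33 to 7 transcripts and from 12 to 0 by ratio.

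Log2 fold changes took the other sign as follows, and the cause was not tested. With GC-bin centring they were 0.26 for MRPL12, 0.059 for MRPL37, 0.30 for MRPL53, 0.11 for MRPL55, 0.23 for MRPS16, 0.0042 for MRPS18B and 0.0528 for MRPS34. With that centring without D391N replicate 1 they were 0.44 for MRPL12, 0.0091 for MRPL37, 0.39 for MRPL53, 0.18 for MRPL55 and 0.20 for MRPS16. With median centring they were 0.0204 for MRPL37, 0.20 for MRPL53 and 0.22 for MRPS16, with quantile normalization 0.0139 for MRPL53 and 0.0372 for MRPS16, and with protein-coding transcripts only 0.0319 for MRPS16. With a library left out, MRPL53 ran from -0.16 to 0.0786 and MRPS16 from -0.0881 to 0.0662. Shares of transcripts with most exon bases in common depend on how reads were divided, and low levels with a posterior SD above 1 rest on few or no reads.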
